A study of Mus musculus with 2 samples.

Results

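The mRNAs that the mitochondrial genome itself encodes were examined in myotubes of C2C12, a mouse myoblast line used as a model of skeletal muscle, that had been given exosomes, small membrane vesicles shed by cells. The 10 genes are ND1, ND2, ND3, ND4, ND4L, ND5, ND6, COX1, COX2 and CYTB, selected on these gene names in the files, with no threshold. Each had 1 probe of 60 bases, printed as 1 spot, among 37325 gene names and 56605 probes on the array. The gene set was proposed with the differences between these same arrays already known, so in that sense it was also chosen by them, and its values are given as a description.

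Cy3-labelled cRNA made from total RNA was hybridised to 2 arrays, 1 per group. The KPC-exo culture received 4 µg of exosomes for 24 h from a pancreatic cancer line derived from tumours of mice carrying KrasLSL-G12D/+, Trp53LSL-R172H/+ and Pdx1-Cre, a Cre driven by a pancreatic promoter. The MPDC-exo culture, the control, received exosomes of MPDC, an epithelial line of the murine pancreatic duct, for 24 h, at a dose not given in the sources used here. Both recipients were C2C12 myoblasts turned into myotubes in horse serum medium, and each donor was a single cell line. Neither group has a replicate. No test and no p-value can therefore be given, and each difference lies between these 2 cultures.

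Mitochondrial DNA is a small circle transcribed from both of its strands into long precursors. Transfer RNAs that lie between most of the coding regions are cut out, which releases the mRNAs, and most of these then receive a short poly(A) tail. All of the mRNAs but that of ND6 come from the heavy-strand promoter, while ND6 comes from the light-strand promoter. The 10 proteins are membrane subunits of respiratory complexes I, III and IV, which pass electrons to oxygen and pump protons, and muscle depends on them for sustained ATP supply.

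The ND5 and ND6 probes are shown because they lie 90 bases apart on opposite strands, COX1 as a subunit of another complex, and GU332589 because it is the other probe of a light-strand RNA. GU332589 is no member, and the files describe it as a mitochondrial antisense RNA of a BALB/c mouse. Capitals mark G, and each probe has the sense of the RNA it was designed for, 5′ to 3′.
ND5, chrM:13402-13461, plus strand: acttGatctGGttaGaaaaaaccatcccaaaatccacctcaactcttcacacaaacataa
ND6, chrM:13552-13611, minus strand: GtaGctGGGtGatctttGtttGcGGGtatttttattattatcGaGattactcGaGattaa
COX1, chrM:6203-6262, plus strand: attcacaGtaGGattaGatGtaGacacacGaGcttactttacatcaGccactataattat
GU332589, chrM:1155-1214, minus strand: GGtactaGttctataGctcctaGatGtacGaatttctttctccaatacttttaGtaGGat
The ND6 probe held 15 G and 6 C. The probes of the other 9 members held 4 to 11 G and 10 to 18 C. The ends of 11 G and 10 C came from ND3 alone, and the next nearest was COX1 with 9 G and 12 C. The GU332589 probe, of a light-strand RNA, held 10 G and 11 C and so lay inside these ranges only through ND3. Positions are on mm9, as the files give them. The files place 9 of the 10 members on the mitochondrial genome and the ND3 probe on chr1:24619613-24619672, minus strand, so that a nuclear copy of this sequence and the mitochondrial mRNA cannot be told apart at that probe. Its sequence is given for this reason.
ND3, chr1:24619613-24619672, minus strand: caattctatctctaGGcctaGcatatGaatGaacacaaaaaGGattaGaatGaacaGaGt

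All 10 members were well above background on both arrays, and no member spot was saturated or flagged as an outlier. The background around the ND1 and ND4 spots was flagged on both arrays. The 75th percentile of the signal over probes was 380.0 scanner units for MPDC-exo and 639 for KPC-exo, a ratio of 1.68, and each array was centred on its own percentile on the log2 scale. Each gene was taken at its brightest probe. It is called measured if that probe passed the software's test of being well above background on both arrays, as 16989 genes did. Their median log2 difference, KPC-exo minus MPDC-exo, was 0.06. Of 8 myotube markers (Myog, Ckm, Des, Acta1, Myh3, Mylpf, Tnnt3 and Tnnc2) all were measured. Their median log2 difference was -0.15, and 6 of the 8 lay below the median of all genes. Among these 6 were Ckm, the muscle creatine kinase, at -0.44 and Des, the muscle intermediate filament desmin, at -0.41. Mylpf and Tnnt3 lay above the median of all genes, at 0.24 and 0.34. Most of the heavy-strand members, described below, lay on the same side of 0 as the markers' median. The markers' part in the members' values was not tested. Of 7 epithelial markers, Cldn7 and Krt19 were measured at log2 signals from -3.41 to -2.34, and Epcam, Cdh1, Krt8, Krt18 and Cldn4 were not measured. The 5 fibroblast markers were all measured, with a median log2 difference of 0.22, and 2 of them lay below the median of all genes.

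**Figure D1:**
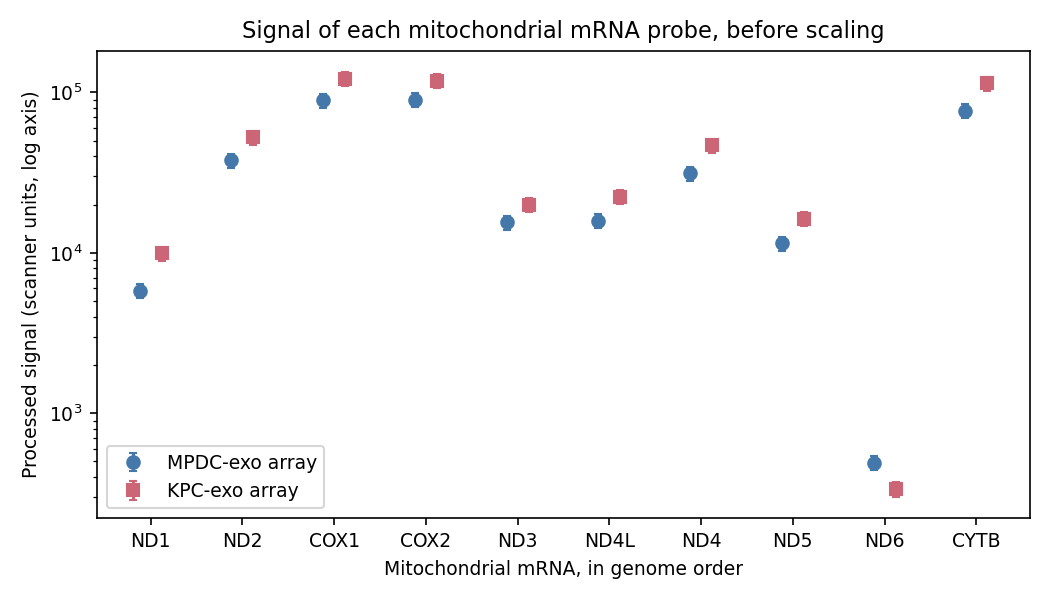
Processed signal of each member's probe on a log axis, before scaling, with the MPDC-exo array as circles and the KPC-exo array as squares; bars are the error that the scanner software gives for the spot. The KPC-exo array was brighter for every member except ND6, whose signal was 492 for MPDC-exo and 337 for KPC-exo.

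ND6 stood apart from the other members. It encodes a subunit of the proton-pumping membrane arm of complex I. Its signal was 492 ± 49.6 units (software error of the spot) for MPDC-exo and 337 ± 35.0 for KPC-exo, although the KPC-exo array was the brighter one overall. After centring, the log2 levels were 0.37 and -0.92, a log2 difference of -1.29 with an error of 0.21, or 2.45-fold lower on the KPC-exo array. That error combines the software's estimates for both spots and leaves out variation between cultures. Among the 16989 measured genes, 108 had a lower difference than ND6, and 34, ND6 included, were at least as low and at least as bright. With centring on spike-in controls, which raises every gene by 1.00, ND6 was still lower, at -0.29, but by less than 1.5-fold.

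The other 6 complex I members had log2 differences from -0.39 to 0.02. Their subunits also lie in the membrane arm. ND1, the subunit beside the quinone site, had a signal of 5818 for MPDC-exo and 9932 for KPC-exo. Its log2 levels of 3.94 and 3.96 differed by 0.02, the highest value among the members. ND2 had signals of 37705 and 52560, log2 levels of 6.63 and 6.36, and a difference of -0.27. ND2, ND4 and ND5 are the antiporter-like subunits that carry the proton channels. ND4 had signals of 31334 and 46867, with a log2 difference of -0.17. ND5 had 11473 and 16245, with a difference of -0.25. Both raw signals were thus higher on the KPC-exo array, but by less than the 1.68-fold of the array's percentile. ND4L, whose reading frame overlaps that of ND4 on a shared mRNA, had signals of 15783 and 22416 and a difference of -0.24. ND3, with the chromosome 1 position noted above, had 15473 and 19835 and the lowest difference of these 6, at -0.39. Over the alternative ways of processing other than spike-in centring, ND1 ran from -0.04 to 0.08, ND4 from -0.22 to -0.06 and ND5 from -0.30 to -0.16.

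The 3 members of complexes III and IV lay in the same range. CYTB encodes cytochrome b, the subunit of complex III that holds both quinone sites, and its signals were 76695 for MPDC-exo and 114228 for KPC-exo. Its log2 difference was -0.17. COX1, the catalytic subunit of complex IV, had signals of 89489 and 122004 and a log2 difference of -0.30. COX2, which receives electrons from cytochrome c, had 89684 and 118006 and a difference of -0.35. Over the same alternatives COX1 ran from -0.36 to -0.13, COX2 from -0.41 to -0.20 and CYTB from -0.23 to -0.04. In every setting COX2 was the lowest of these 3 and CYTB the highest. Their place among the other members depended on the processing. With quantile normalization, ND5 at -0.29 lay below COX2 at -0.21, the reverse of their order as centred here.

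As a set, the 9 heavy-strand members had log2 differences from -0.39 to 0.02, with a median of -0.25, or 1.19-fold lower. They spanned 0.41, and the software's error of each of these differences was 0.20. This error hardly varied with the signal, so counts against it restate the sizes of the differences. Repeated spots at least as bright as ND1 had median SDs of 0.03 for MPDC-exo and 0.02 for KPC-exo. Of the 9 members, 3 (ND1, ND4 and CYTB) lay within 1 error of 0 and all 9 within 2 errors. All 9 lay below the median of all measured genes, and 8 lay below 0. Of all measured genes, 41.2% lay below 0. The direction against 0 depends on the scaling: with centring on 7 spike-in probes their median was 0.75 and 0 of the 9 lay below 0, while all 9 stayed below the median of all genes, then 1.06. Spots of 1 array and 1 RNA sample share its scaling and labelling, so the 9 are not separate observations of the treatment.

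**Figure D2:**
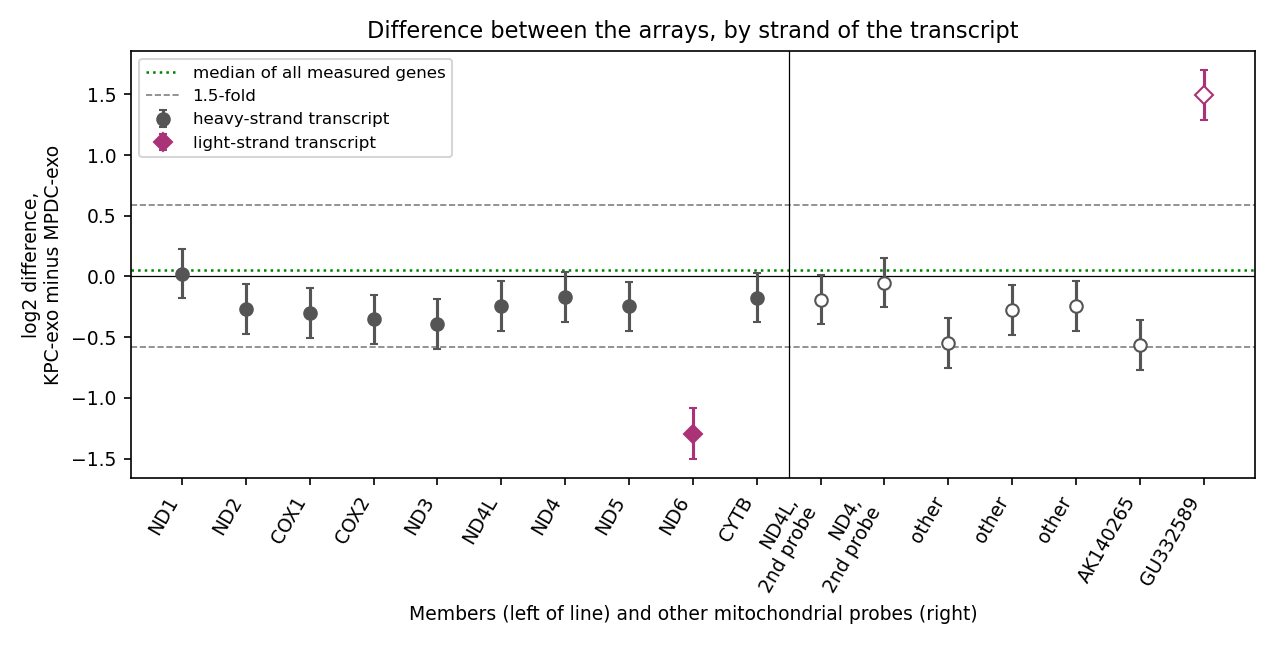
Difference in log2 level between the arrays for the 10 members in genome order, left of the line, and for 7 other probes placed on the mitochondrial genome, right of it; bars are the software error, filled symbols are members and diamonds mark RNAs of the light strand. ND6 at -1.29 and GU332589 at 1.496 lie outside the 1.5-fold lines in opposite directions, and the heavy-strand probes run from -0.56 to 0.02 with this scaling.

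Of the 10 members, 1 was at least 1.5-fold apart as centred here, ND6, which was lower. Among all measured genes 3.72% were at least 1.5-fold lower, and among the 11549 at least as bright as ND6 1.96% were. At a lower threshold, where the brighter array exceeds the dimmer by 25%, the members ND6, ND3 and COX2 were lower and 0 were higher, against 10.2% of all measured genes lower. For 2-fold the count was 1, again ND6, against 1.19% of all measured genes. With spike-in centring ND6, at -0.29, passed neither 1.5-fold nor 2-fold, and 0 members were at least 1.5-fold lower. The 9 heavy-strand members were then at least 1.5-fold higher, where the median of all measured genes was 1.06. A single member past the threshold is a description of ND6 and says nothing about the set.

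The brightest genes on the arrays lay somewhat lower for KPC-exo. The 3531 measured genes at least as bright as ND1, the dimmest member besides ND6, had a median log2 difference of 0.00, with the middle 50% from -0.14 to 0.15. Here 8 of the 9 heavy-strand members lay below the median and 1 within the middle range. The 239 genes at least as bright as CYTB, members included, had a median of -0.19. CYTB, COX1 and COX2, at -0.17, -0.30 and -0.35, are to be read against that value. This threshold was chosen after seeing the data, and the part of signal strength in the members' differences was not tested further.

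**Figure D3:**
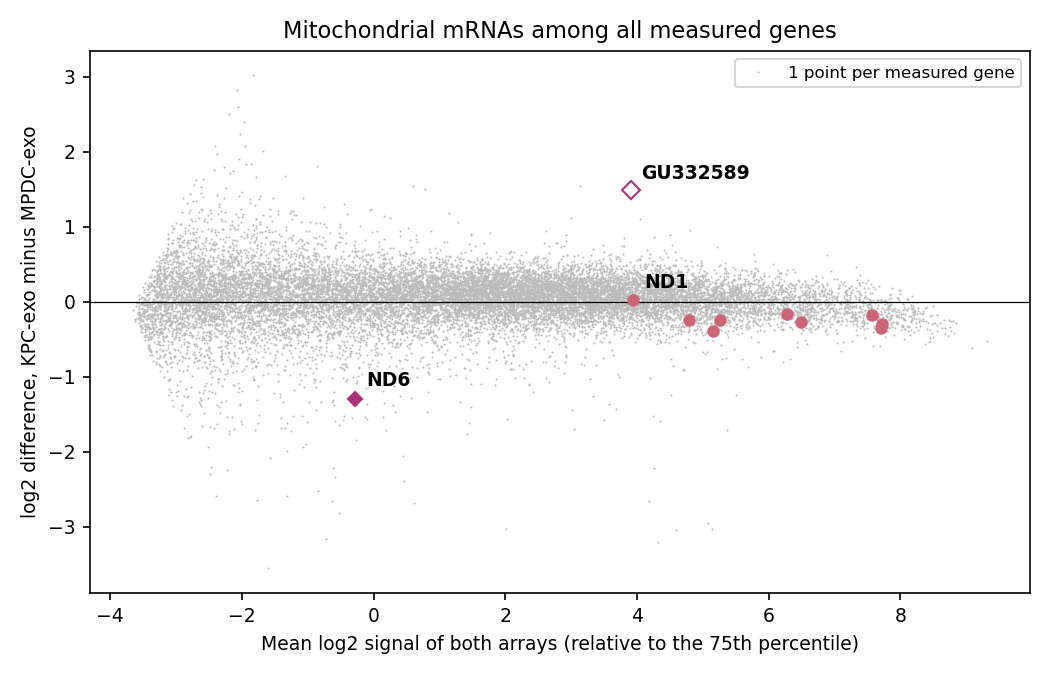
Log2 difference against the mean log2 signal of both arrays, 1 grey point per measured gene, with the members coloured and ND6, ND1 and GU332589 named. The cloud bends downward at the bright end, where CYTB, COX1 and COX2 lie. ND6 lies in the lower fringe of the cloud, with 108 of the 16989 measured genes lower and 11549 at least as bright.

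The difference between ND6 and the heavy-strand members was -1.05 on the log2 scale against their median, or 2.07-fold. The gap from ND6 to its nearest member, ND3, was 0.90, with a combined software error of 0.29 for both probes. Centring shifts all genes alike and leaves this contrast unchanged. It ran from -1.12 to -0.95 over 12 alternative ways of processing. The series value table, whose columns have the same distribution as quantile normalization would leave, gave -1.32 for ND6 and -0.20 for the median of the other 9, which ran from -0.41 to -0.04.

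Spots of 1 probe on 1 array give the spread within that array and none of the variation between cultures, RNA samples or labelling reactions. The 4 probes printed repeatedly whose signal lay within 1 log2 unit of ND6 had a median SD between spots of 0.07 for MPDC-exo and 0.06 for KPC-exo, with a largest SD of 0.10. Those at least as bright as ND1, 256 probes, had median SDs of 0.03 and 0.02. Different probes of 1 gene varied more, with an SD of their log2 differences of 0.25 over 2797 genes at least as bright as ND6 and 0.18 over 408 genes at least as bright as ND1. ND6 had only its 1 probe, so no second probe can be set beside it.

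A second probe existed for 2 of the members, under names of predicted genes but listed in the files with the same transcript. For ND4 that probe, ENSMUST00000187714 at chrM:10860-10919, gave -0.05 in place of -0.17. For ND4L the second probe, ENSMUST00000088336, shares 57 bases with the first and gave -0.19 in place of -0.24. Within each pair the log2 differences lay closer together than the software's error of 0.20, which hardly varied between these probes and is not a measured spread.

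RNAs of the light strand did not share 1 direction. GU332589 had signals of 3387 ± 339 units for MPDC-exo and 16051 ± 1605 for KPC-exo. Its log2 levels were 3.16 and 4.65, so KPC-exo exceeded MPDC-exo 2.82-fold, with a log2 difference of 1.496 and an error of 0.20. Of all measured genes, 28 had a higher difference. It lay 2.79 above ND6 on the log2 scale and 1.74 above the median of the heavy-strand members. It was singled out after its value was seen and rests on 1 spot per array. The other 6 probes on the mitochondrial genome, all on the plus strand, ran from -0.56 to -0.05. The lowest of them, AK140265 at chrM:598-657, is a cDNA clone, with signals of 153060 and 174075. ATP8, a heavy-strand mRNA for a subunit of ATP synthase that is not among the 10, was next at -0.55, or 1.46-fold lower, with signals of 10319 and 11874. Both lay below all 9 heavy-strand members and were named after their values were seen. The ATP8 value rests on 1 probe, at chrM:7870-7929. The next plus-strand probe, ENSMUST00000189941 at chrM:7965-8024, gave -0.27.

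Most of the measured structural RNAs, and fewer of the histone genes, were at least 1.5-fold lower for KPC-exo as centred here. Labelling kits of this type prime on poly(A), and the ND6 mRNA of human mitochondria is known to lack a stable tail. Structural RNAs, a class of small nuclear, nucleolar and ribosomal RNAs taken by name after the data were seen, had a median log2 difference of -1.39 over 22 measured genes, of which 18 were at least 1.5-fold lower and 1 higher, where 3.72% of all measured genes were lower. Replication-dependent histone genes, whose mRNAs end in a stem-loop, had a median of -0.27 over 47 measured gene names, with 15 lower and 2 higher at 1.5-fold. Older and newer names were both counted, so H1f2, at 0.05, also appears as Hist1h1c, at 0.01. Rmrp, a structural RNA of the nucleolus and mitochondria, had -1.34 and the histone gene H4c12 had -1.59, both named after their values were seen. Others went the opposite way, among them Snord7 at 0.76, Rnu12 at 0.28, and the histone genes H2bc1 at 1.11 and Hist2h2bb at 0.68. With centring on spike-in controls, run after the data were seen, the structural RNAs had a median of -0.39, with 8 lower and 4 higher at 1.5-fold. The histone genes then had a median of 0.73, with 5 lower and 28 higher, where the median of all measured genes was 1.06. Histone copies are near-identical and their probes may not separate them. The part of labelling in the ND6 value was not tested.

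**Figure D4:**
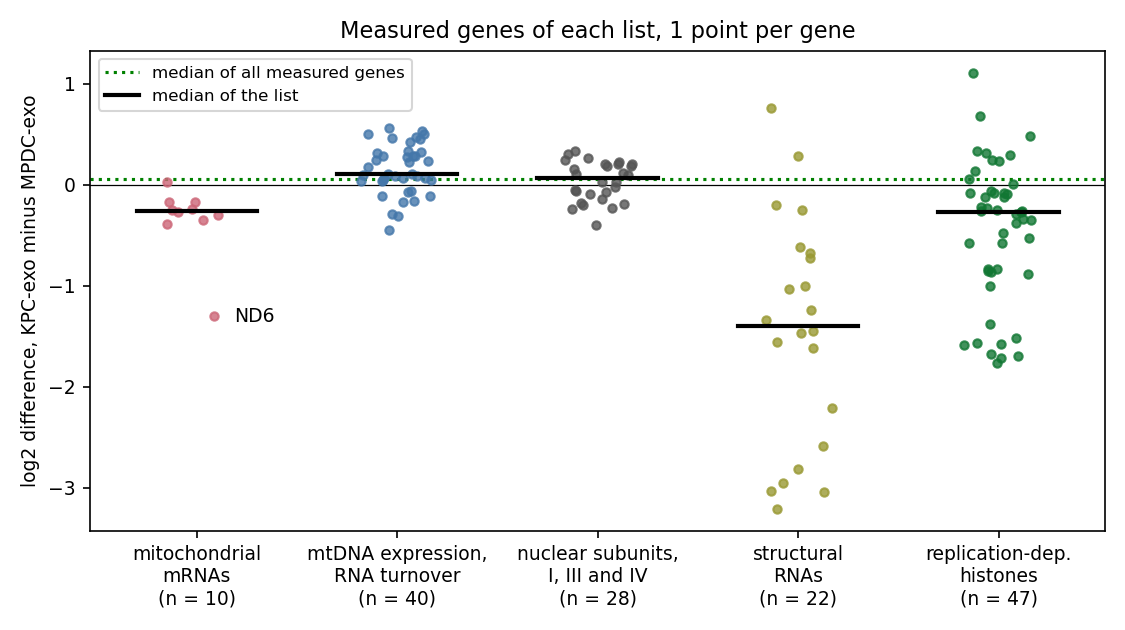
Log2 difference of each measured gene, 1 point per gene name, in the mitochondrial mRNAs and 4 other lists. Bars are the median of each list. ND6 lies at -1.29. The structural RNAs, taken by name after the data were seen, have a median of -1.39 and run from -3.21 to 0.76. The nuclear lists for mitochondrial expression and respiratory subunits have medians of 0.11 and 0.06 as centred here.

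The listed nuclear genes of mitochondrial DNA expression lay within 1.5-fold as centred here. The list covers transcription and RNA processing, and also replication and upkeep of the DNA, with Polg, Polg2 and Twnk among the latter. All 40 listed genes were measured, with a median log2 difference of 0.11, and 0 were at least 1.5-fold apart, where 7.43% of all measured genes were. With centring on spike-in controls the median was 1.11 and 39 of the 40 were at least 1.5-fold higher. The median of all measured genes was then 1.06, so both this count and the count of 0 rest on the scaling. The count of 0 also moved under other processing. It became 2 higher with normexp background correction, 1 lower and 1 higher without background-flagged spots, and 1 higher with the mean over probes. Of the 40, 13 lay below the median of all genes. The highest were Elac2, which cuts the ends of mitochondrial tRNAs, at 0.56, Tfam, the packaging and transcription factor of mitochondrial DNA, at 0.53, and Mtpap, the mitochondrial poly(A) polymerase, at 0.50. The lowest were the helicase gene Twnk at -0.45, and Lrpprc and Slirp at -0.31 and -0.29. Lrpprc and Slirp form the complex that stabilises heavy-strand mRNAs, and their log2 levels were 3.69 and 4.99 for MPDC-exo and 3.38 and 4.70 for KPC-exo. Polrmt, the mitochondrial RNA polymerase, and Tefm, its elongation factor, had 0.33 and 0.47. These 2 were named outside the rule, after their values were seen.

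Nuclear-encoded partners in complexes I, III and IV also lay within 1.5-fold, as centred here. Of 28 measured genes among 29 listed, 0 were at least 1.5-fold apart and 14 lay below the median of all genes, with a list median of 0.06. With spike-in centring that median was 1.06 and all 28 were at least 1.5-fold higher, where the median of all measured genes was also 1.06. Among the highest were Uqcrc2, a core protein of complex III, at 0.34, and Ndufs1, a core subunit of complex I, at 0.30. The lowest were Cox6c at -0.40, Uqcrfs1, the Rieske iron-sulfur protein of complex III, at -0.24, and Uqcrq at -0.23. The lowest difference among these nuclear partners was thus close to that of ND3, the lowest heavy-strand member, and none was as low as that of ND6.

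**Figure D5:**
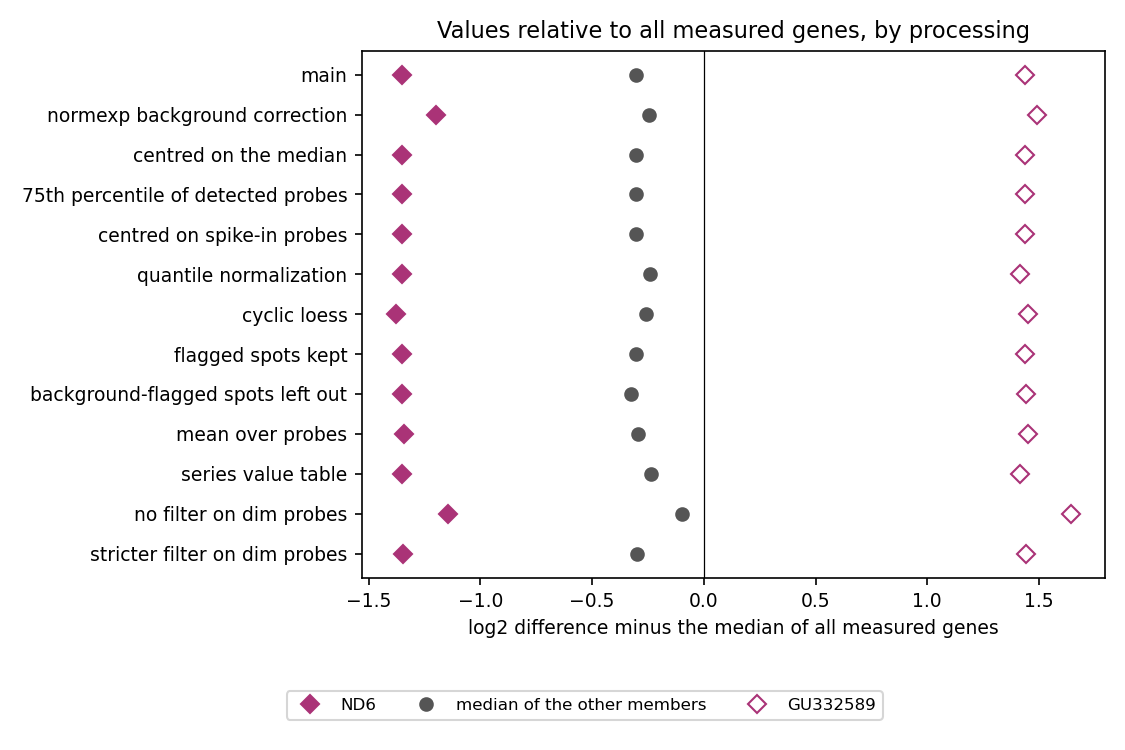
Value of ND6, of the median of the other members and of GU332589, each minus the median log2 difference of all measured genes, under the reported processing (main) and 12 alternatives. ND6 ran from -1.38 to -1.15, the other members' median from -0.32 to -0.10 and GU332589 from 1.42 to 1.64 over the alternatives.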

How the data were processed

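Per the labels, Cy3-labelled cRNA was made with a 1-colour amplification kit. Per the file headers, Agilent Feature Extraction 10.7.1.1 corrected every spot for background and for trends across the slide. The deposited intensity of each spot is linear and was not normalized across arrays, and it comes with the software's own error estimate. The series value table holds deposited log2 values whose making is not stated in the sources used here; both columns had a median of 4.88 and correlated at 1.00 across probes with the log2 signal, and it was used as an alternative. Log2 signals were averaged over spots without outlier flags and centred on each array's 75th percentile over probes. The share of probes well above background was 45.9% for MPDC-exo and 47.6% for KPC-exo. The number of arrays limits the precision. Gene names of lists were updated through RefSeq accessions (32994 probes matched). The code was tested on simulated data. The members and lists were chosen with earlier results of these data known. Genes named are the members and, of each of the 2 nuclear lists, the 3 highest and the 3 lowest, of which 1 is not reported here. All other genes given with values were named after their values were seen. With 2 arrays, no likeness of pattern between genes was measured. Python 3.11.15, numpy 2.4.6, pandas 2.3.3, matplotlib 3.10.9, R 4.3.3 and limma 3.58.1 were used.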

Additional observations from a re-analysis of the deposited data

How the results depend on the processing

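Tried in turn were normexp (offset 50), centring on 7 spike-in probes, on the median or on the 75th percentile of detected probes, cyclic loess, quantile normalization, flagged spots kept, spots with a flagged background left out, the mean over probes, the series value table, and no filter or one 3 times stricter on dim probes. Centring on the spike-in probes raised every gene by 1.00, which put the median of the 10 members at 0.74 in place of -0.26. It also put 9 of them at least 1.5-fold higher, and ND6, at -0.29, was then less than 1.5-fold lower. The median of all measured genes was then 1.06, itself past 1.5-fold, so such counts follow the shift of all genes. The share of all measured genes past 1.5-fold was not counted for this centring. For the nuclear lists this centring was added after seeing the data: the median was 1.11 in place of 0.11 for mitochondrial DNA expression and 1.06 in place of 0.06 for the nuclear subunits. A threshold at which the brighter array exceeds the dimmer by 25% counted 3 members in place of 1. Leaving out spots with a flagged background removed ND1 and ND4. Without a filter on dim probes the median of all genes was -0.15, and 8 of the 9 members other than ND6 lay below it, as did 8 of 9 with normexp. The value of ND6 relative to the other members moved by less than the software's error of 1 spot in every alternative run for it. The medians of both nuclear lists did so in those run for them other than the spike-in centring. No paired analysis was possible because each group has 1 array. Leaving out an array leaves no comparison.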
